A study of Mus musculus with 14 samples.

Results

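The comparison described here sets late against middle functional overload in mouse plantaris muscle. Late overload is days 10 and 14 and middle overload is days 5 and 7 after synergist ablation, an operation that removes muscles sharing the task of the plantaris so that the plantaris bears more load and grows. Arrays were chosen by their labelled day alone, which gave 8 of the 14 arrays in the series, 4 in each phase. The other arrays cover days 0, 1 and 3, and the 2 arrays of day 0 served as the level before overload. All animals were male C57BL/6J mice, 5 months old. Each day had 2 Affymetrix Mouse Gene 1.0 ST arrays, 1 hybridised with a pool of right and 1 with a pool of left plantaris muscles, and each pool held the muscles of 6 animals. Whether 1 set of animals gave both pools of a day is not in the labels. A p-value here therefore measures how far pools spread, part of which may be technical, and says nothing of the spread of single mice. Without sham-operated mice among the samples used, overload, the operation itself and time after it cannot be told apart.

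An overloaded plantaris first passes through damage and inflammation and then through growth. Macrophages clear debris and supply growth factors, satellite cells, the stem cells of muscle, divide and fuse with fibres, and fibroblasts build extracellular matrix and tendon-like tissue. Fibres meanwhile shift their contractile proteins and metabolism toward slower and more enduring types, and their ribosome content rises.

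Deposited values were intensities on a linear scale, from 5.9 to 29501.5, with array medians between 242.8 and 254.9, and are given below as log2 intensity. Precision is limited by how many arrays there are: a late minus middle difference had a median SE of 0.07 (log2). Markers of skeletal muscle fibres stood among the brightest genes of the 8 arrays, for example Ckm, muscle creatine kinase, between 13.34 and 14.10. Keratinocyte markers Krt5 and Krt14, from skin, stood at percentiles 29.9 and 29.7 of all genes by mean level. Hepatocyte genes differed between pools of 1 day: Alb, serum albumin, read 10.49 in the right and 12.98 in the left pool of day 5. The summed intensity of the 19 hepatocyte genes ran from 7658.9 to 28911.4 over the middle arrays and from 10587.9 to 25525.3 over the late arrays, and 0 were called between phases (limma, 1 at an unadjusted p under 0.05). Values of 1 right and 1 left pool are given in that order throughout.

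Genes that differed between the phases were split almost evenly between rises and falls. Here and below, a gene is called where the difference between the phase means passed limma's moderated test at an adjusted p under 0.05 (Benjamini-Hochberg over all 19938 genes, two-sided, 4 late against 4 middle arrays), and only called genes are said to rise or fall. Of 19938 genes, 7202 (36.1%) were called, 3524 higher (17.7%) and 3678 lower (18.4%) in late overload. Below, counts of list members that rose or fell are to be read beside 17.7% and 18.4%. Those between days 10 and 7 alone are to be read beside 6.95% higher and 9.52% lower. Past 2-fold there were 102 rises and 210 falls. The median over all genes was a difference of 0.05, and quantile normalization or equal array medians moved it by less than 0.1. The 4 late arrays lay wholly above the 4 middle arrays in 3035 genes (15.2%) and wholly below them in 3224 (16.2%). With day as a random block, which counts the difference between days of 1 phase as error, 4419 genes were called. List counts under that setting are to be read beside 4419 of 19938 genes, higher and lower together, and not beside 17.7% and 18.4%. In whole muscle, fewer cells of a type and less RNA per cell cannot be told apart.

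The largest falls were those of Arg1, Ccl2 and Hmox1. Arg1, the arginase of repair-type macrophages, read 10.74 and 10.47 at day 5, 9.19 and 9.60 at day 7, 7.04 and 7.41 at day 10 and 7.19 and 6.70 at day 14. All 4 late arrays lay below all 4 middle arrays, and the fall was 7.52-fold (-2.91 ± 0.30 on the log2 scale ± SE, adjusted p = 3.64e-05). Ccl2, the chemokine that recruits monocytes, read 11.43 and 11.66 at day 5, 10.68 and 10.75 at day 7, 9.20 and 9.01 at day 10 and 8.55 and 8.56 at day 14. It fell at each step, 4.92-fold in all (-2.30 ± 0.08, adjusted p = 1.53e-07). Hmox1, heme oxygenase, which breaks down heme taken up with debris, read 12.25 and 12.20 at day 5, 11.74 and 11.91 at day 7, 10.13 and 10.20 at day 10 and 9.36 and 9.45 at day 14 and had the smallest adjusted p of all genes (-2.24 ± 0.07, 4.1e-08). Behind them came Ppbp, a platelet chemokine (-2.00 ± 0.17), Gal, the neuropeptide galanin (-1.99 ± 0.13), Adam8, a leukocyte metalloprotease (-1.95 ± 0.12), Ccl7 (-1.89 ± 0.07), the chemokine receptor Ccr1 (-1.89 ± 0.16), Bub1, a spindle checkpoint kinase (-1.85 ± 0.15), Msr1, a macrophage scavenger receptor (-1.84 ± 0.09), and Steap1, a membrane metalloreductase (-1.79 ± 0.10).

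The largest rises were smaller than the largest falls. Myl2, the slow and cardiac regulatory myosin light chain, read 9.81 and 8.61 at day 5, 8.49 and 8.55 at day 7, 10.07 and 10.07 at day 10 and 11.14 and 11.55 at day 14. The day 5 right pool stood above the other middle arrays but still below every late array, and the rise was 3.59-fold (1.84 ± 0.25, adjusted p = 0.000179). Kera, keratocan, a proteoglycan of tendon and cornea, read 9.12 and 8.86 at day 5, 9.33 and 9.63 at day 7, 10.59 and 10.94 at day 10 and 11.10 and 11.12 at day 14 and rose 3.25-fold (1.70 ± 0.13, adjusted p = 5.79e-06). Retnla, a resistin-like protein of alternatively activated macrophages and connective tissue, rose (1.68 ± 0.17), as did Rpl3l, the striated muscle form of ribosomal protein L3 (1.62 ± 0.15), Myh7, the slow myosin heavy chain (1.60 ± 0.30), Mlf1 (1.60 ± 0.14), Tnmd, the tendon membrane protein tenomodulin (1.59 ± 0.12), Chodl, a lectin of muscle and motor neurons (1.54 ± 0.11), Dlk1, an imprinted inhibitor of adipocyte formation (1.51 ± 0.08), and Ckmt2, the creatine kinase of muscle mitochondria (1.48 ± 0.14). Completing the 15 largest rises were Cox7a1, the muscle form of a cytochrome oxidase subunit (1.46 ± 0.10), the sialidase Neu2 (1.45 ± 0.10), the sodium channel subunit Scn4b (1.44 ± 0.14), the glycerol phosphate dehydrogenase Gpd1 (1.44 ± 0.13) and Ky, the kyphoscoliosis peptidase of the Z-disc (1.43 ± 0.10).

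**Figure D1:**
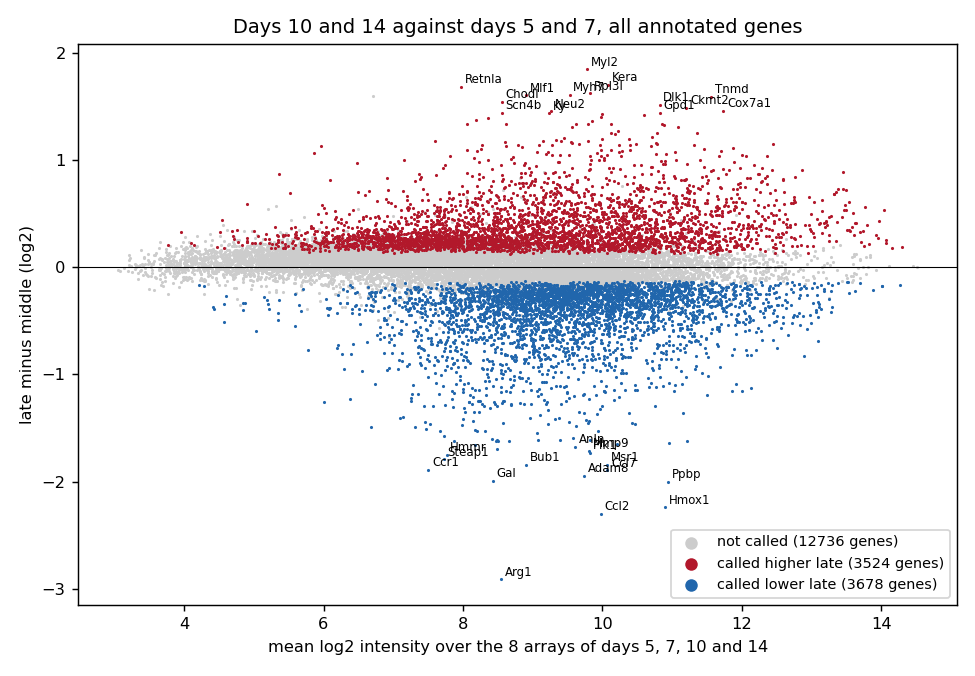
Late minus middle difference (log2, y axis) of all 19938 genes against their mean log2 intensity over the 8 arrays (x axis). Red genes were called higher (3524), blue genes lower (3678) and grey genes not called, and the 30 labelled genes are the 15 largest rises and 15 largest falls, from Myl2 (1.84) to Arg1 (-2.91).

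Genes of cell division fell together. All 39 measured genes of the mitosis list fell, against 18.4% of all genes called lower, with differences from -1.85 to -0.91 and a median of -1.40, where the median of all genes was 0.05. Plk1, the kinase that drives passage through mitosis, read 10.55 and 10.94 at day 5, 10.68 and 10.57 at day 7, 9.29 and 9.24 at day 10 and 8.52 and 8.75 at day 14, a 3.32-fold fall (-1.73 ± 0.13, adjusted p = 5.65e-06). Top2a, the topoisomerase that untangles chromosomes, read 10.17 and 10.42 at day 5, 10.55 and 10.37 at day 7, 8.96 and 8.98 at day 10 and 8.46 and 8.73 at day 14 (-1.59 ± 0.20), and Mki67, the standard marker of cycling cells, read 10.78 and 11.08 at day 5, 11.30 and 11.10 at day 7, 9.78 and 9.89 at day 10 and 9.50 and 9.65 at day 14 (-1.36 ± 0.27). In each of these 3 genes every late array lay below every middle array. All 39 were called lower from day 7 to day 10 alone, where 9.52% of all genes were. From day 5 to day 7, 0 were called (limma, 0 at an unadjusted p under 0.05), and from day 10 to day 14, 0 were called (9 at an unadjusted p under 0.05). Their median stood 2.40 above day 0 in the middle phase and 0.92 above it in the late phase.

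DNA replication and nucleotide supply genes followed with smaller differences. Of 33 measured genes 32 fell, with a median of -0.86, and the remaining 1, the replication protein Rpa2, stood at -0.12 ± 0.07 (adjusted p = 0.196). Rrm2, the subunit of ribonucleotide reductase that sets the supply of deoxynucleotides, read 10.81 and 11.39 at day 5, 11.13 and 10.79 at day 7, 9.57 and 9.70 at day 10 and 9.06 and 9.19 at day 14 and fell most (-1.65 ± 0.17). Uhrf1 (-1.25 ± 0.14), which carries DNA methylation through replication, Prim1 (-1.21 ± 0.17), a primase, and Hells (-1.18 ± 0.11), a chromatin remodeller, fell next. In the day 5 pair the left pool was the higher for Rrm2, Prim1, Hells and Plk1, and in the day 7 pair it was the lower, so the pools of 1 day differed without a fixed side.

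Promoters of the mitosis genes are shown because they fell together, with 2 sequence motifs known from cell cycle promoters. CCAAT is the box bound by the factor NF-Y, and TTTGAA is the core of the cell cycle homology region, an element of late cell cycle promoters. Sequences are the 250 bases before the start, from RefSeq on GRCm38.p6, written 5′ to 3′ on the gene's strand, with CCAAT and TTTGAA or their reverse complements ATTGG and TTCAAA in capitals. Top2a lies on chr11:99024190-99024439, minus strand, Ncapg, a condensin subunit that fell (-1.53), on chr5:45669675-45669924, plus strand, and Ect2, an exchange factor of cytokinesis that fell (-1.47), on chr3:27153879-27154128, minus strand.
Top2a: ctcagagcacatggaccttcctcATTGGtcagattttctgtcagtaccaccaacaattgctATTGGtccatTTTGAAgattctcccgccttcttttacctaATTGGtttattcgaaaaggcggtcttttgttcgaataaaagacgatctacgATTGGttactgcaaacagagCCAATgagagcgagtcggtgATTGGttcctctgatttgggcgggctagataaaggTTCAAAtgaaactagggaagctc
Ncapg: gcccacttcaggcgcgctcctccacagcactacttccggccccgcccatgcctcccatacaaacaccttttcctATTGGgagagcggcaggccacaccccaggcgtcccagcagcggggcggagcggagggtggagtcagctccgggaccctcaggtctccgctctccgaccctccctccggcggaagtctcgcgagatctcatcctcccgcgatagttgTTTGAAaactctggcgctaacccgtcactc
Ect2: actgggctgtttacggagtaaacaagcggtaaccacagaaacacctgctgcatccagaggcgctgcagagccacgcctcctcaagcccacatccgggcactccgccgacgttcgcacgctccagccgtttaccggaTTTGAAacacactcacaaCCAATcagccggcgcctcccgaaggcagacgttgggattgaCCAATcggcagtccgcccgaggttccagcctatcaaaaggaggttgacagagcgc
On either strand, CCAAT was present in 24 of the 33 mitosis genes with a promoter in the table (72.7%), in 55.2% of the 29 replication genes with one, and in 34.5% of all 27025 promoters. TTTGAA was present in 33.3% of the mitosis genes, 10.3% of the replication genes and 16.3% of all promoters. A match describes these letters only. Base composition was not matched between the lists and all promoters.

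**Figure D2:**
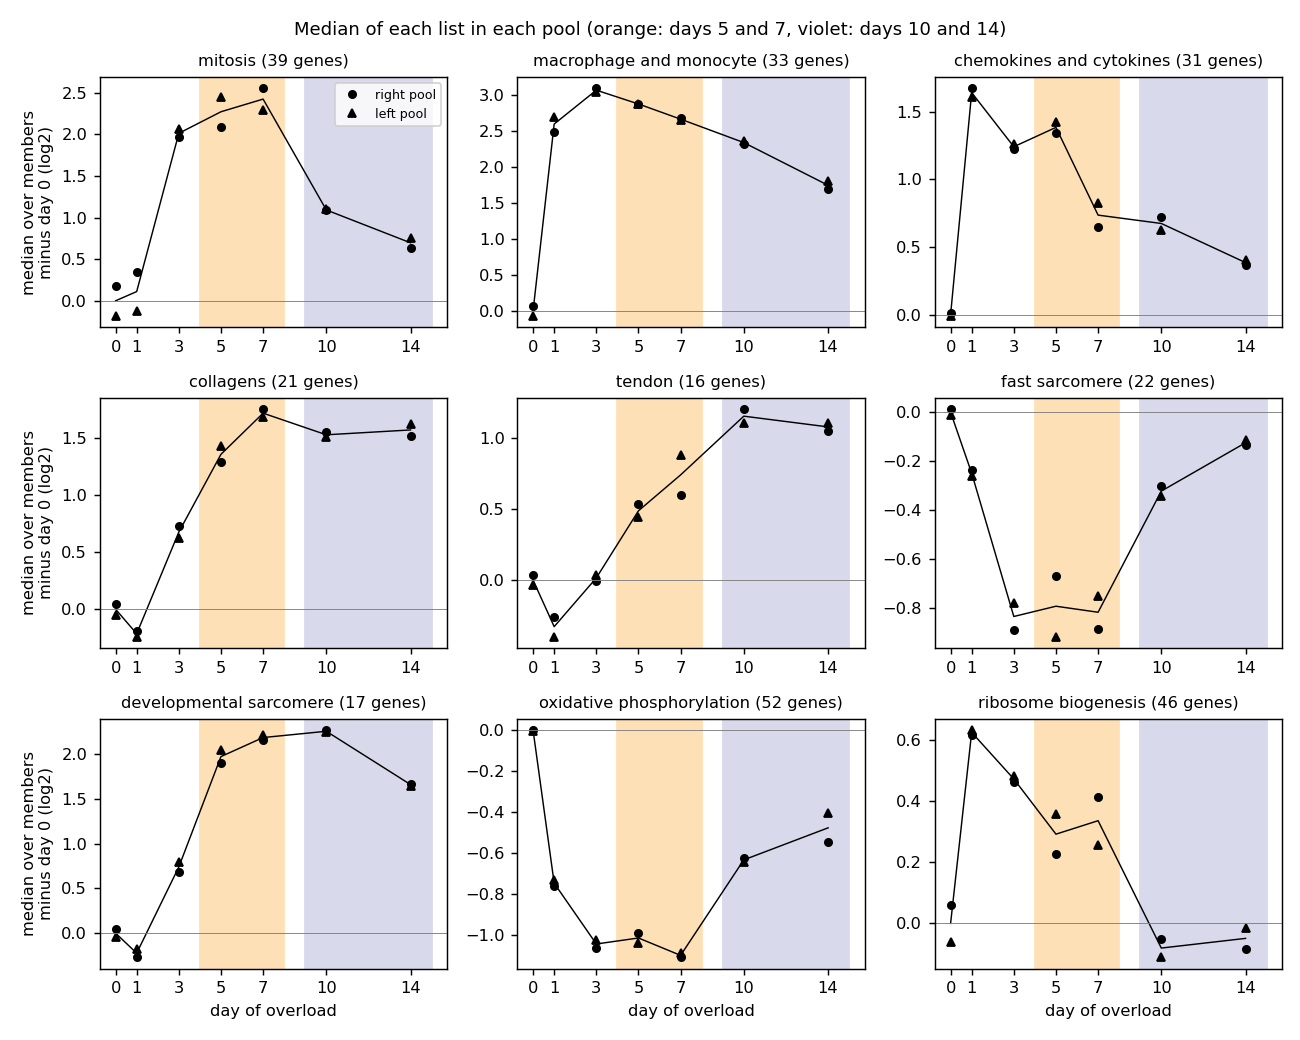
Median log2 level of 9 gene lists minus day 0 (y axis) in each pool on each day of overload (x axis), right pools as circles and left pools as triangles, with a line through the day means. The mitosis list falls from day 7 to day 10 (median change -1.26), the macrophage list falls over both later steps (-0.40 and -0.61), and the fast sarcomere and oxidative phosphorylation lists turn up from day 7 to day 10 (0.45 and 0.40).

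Macrophage genes fell in late overload, to a median still 2.01 above day 0 from 2.72 in the middle phase. Of 33 macrophage and monocyte genes 30 fell and 2 rose, with a median of -0.72. Adgre1, which encodes the antigen of the standard macrophage antibody, read 11.33 and 11.43 at day 5, 11.39 and 11.33 at day 7, 10.95 and 10.96 at day 10 and 10.34 and 10.34 at day 14 (-0.72 ± 0.07, adjusted p = 1.89e-05). Cd68, a lysosomal glycoprotein of macrophages, read 12.43 and 12.58 at day 5, 12.40 and 12.41 at day 7, 11.76 and 11.85 at day 10 and 10.90 and 10.96 at day 14 (-1.09 ± 0.06). For both genes the day 14 pools lay well below the day 10 pools. Larger falls were those of Msr1, Ms4a6d (-1.64 ± 0.06), the integrin Itgam (-1.42 ± 0.14) and the galectin Lgals3 (-1.19 ± 0.08). Lyz1, a lysozyme, rose (0.49 ± 0.10), and Cd74, the invariant chain, stood higher by 0.17 ± 0.06 (adjusted p = 0.0326). The Cd74 call was lost without any 1 of 7 of the 8 arrays, those other than the day 5 right pool, and its difference was -0.16 between days 14 and 5. By step, 18 members were called lower from day 7 to day 10 and 24 from day 10 to day 14, where 2.56% of all genes were. The summed intensity of the 33 genes ran from 93931.6 to 103447.1 over the middle arrays and from 48234.5 to 77584.5 over the late arrays.

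Of 31 chemokines and cytokines 18 fell and 3 rose, with a median of -0.54. Il1b, the inflammatory cytokine interleukin 1 beta, read 9.17 and 8.99 at day 5, 8.55 and 8.62 at day 7, 7.88 and 7.32 at day 10 and 7.42 and 7.31 at day 14 (-1.35 ± 0.14). Ccl3, a macrophage chemokine, read 10.73 and 10.88 at day 5, 10.27 and 10.18 at day 7, 10.55 and 10.23 at day 10 and 8.58 and 8.43 at day 14, so that its fall (-1.06 ± 0.11) came at day 14 (-1.89 from day 10) and the difference between days 10 and 7 was 0.17. Ccl11, the eosinophil chemokine eotaxin, ran the other way with 9.46 and 9.11 at day 5, 8.80 and 8.87 at day 7, 9.68 and 9.69 at day 10 and 10.17 and 10.09 at day 14 and rose (0.85 ± 0.08), toward a day 0 mean of 10.65. Cxcl13 (0.53 ± 0.14) and Cxcl14 (0.33 ± 0.09) were the other rises. Without the day 10 right pool Ccl11 alone was left. Cxcl13 was also lost without the day 14 right pool, and Cxcl14 without the day 5 left, day 7 right or day 14 left pool. Between days 14 and 5 Cxcl13 stood at 0.01 and Cxcl14 at -0.02. Neither of these genes was called with day as a random block. Between days 10 and 7 alone 8 of the list were lower.

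Of the next 4 immune lists, complement alone held rises. Of 19 interferon response genes 16 fell (median -0.36), led by the transcription factor Irf7 (-0.89 ± 0.11) and the antiviral Mx1 (-0.83 ± 0.12), while 4 fell between days 10 and 7 alone. Of 16 neutrophil genes 5 fell, or 1 between days 10 and 7 alone, among them Mmp9, a gelatinase (-1.71 ± 0.19), and the receptors Cxcr2 (-1.49 ± 0.25) and Trem1 (-0.97 ± 0.18). The neutrophil markers S100a8 and S100a9 were not called, at -0.16 ± 0.29 and -0.13 ± 0.29, and the day 14 left pool was their highest late array. Complement went both ways with 6 falls and 4 rises of 15, or 2 rises between days 10 and 7 alone. The falls were of the anaphylatoxin receptors C5ar1 (-1.29 ± 0.08) and C3ar1 (-1.13 ± 0.07) and of the soluble components properdin, Cfp (-1.12 ± 0.08), C1qc (-0.62 ± 0.08), C1qa and C1qb, where C1qc was not called with day as a random block or between days 10 and 7 alone. Rises included the soluble components C7 (1.14 ± 0.12) and C1s1 (0.71 ± 0.15). Among 22 genes of lysosomes and cathepsins 17 fell (median -0.40), with cathepsin C, Ctsc (-0.82 ± 0.06), and legumain, Lgmn (-0.68 ± 0.05), and 8 fell between days 10 and 7 alone.

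T cell genes included rises. Of 21 lymphocyte and natural killer cell genes 8 rose and 6 fell, where 17.7% of all genes rose and 18.4% fell. With day as a random block 5 rose and 4 fell. The T cell receptor chain Cd3g read 6.91 and 7.11 at day 5, 7.27 and 7.20 at day 7, 7.72 and 7.95 at day 10 and 7.22 and 7.31 at day 14 (0.43 ± 0.08), and the co-receptor chain Cd8b1 read 7.12 and 7.03 at day 5, 7.14 and 7.22 at day 7, 7.91 and 7.77 at day 10 and 7.31 and 7.43 at day 14 (0.48 ± 0.06). Both were highest in the day 10 pools, and both were called from day 7 to day 10 (0.60 and 0.66) and again, downward, from day 10 to day 14 (-0.57 and -0.47). In the middle arrays both stood near the level of the skin marker Krt5, 7.01 to 7.53 over the 8 arrays. The rise of Cd3g was not called with day as a random block. Il7r, the interleukin 7 receptor (-0.87 ± 0.09), and Ncr1, a natural killer receptor (-0.87 ± 0.08), fell. Between days 14 and 5 alone 2 of the list were higher, where 2933 of all 19938 genes were. Without the dimmest of 3 intensity classes of genes 3 rose and 1 fell. Among 14 genes of MHC class II and antigen presentation 3 rose and 3 fell, shares near the 17.7% and 18.4% of all genes. No rise was left without the day 5 left or day 10 right pool, and 1 without each other array but the day 5 right pool. The rise of H2-Aa (0.18 ± 0.06, adjusted p = 0.0374) was among those lost in each case.

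**Figure D3:**
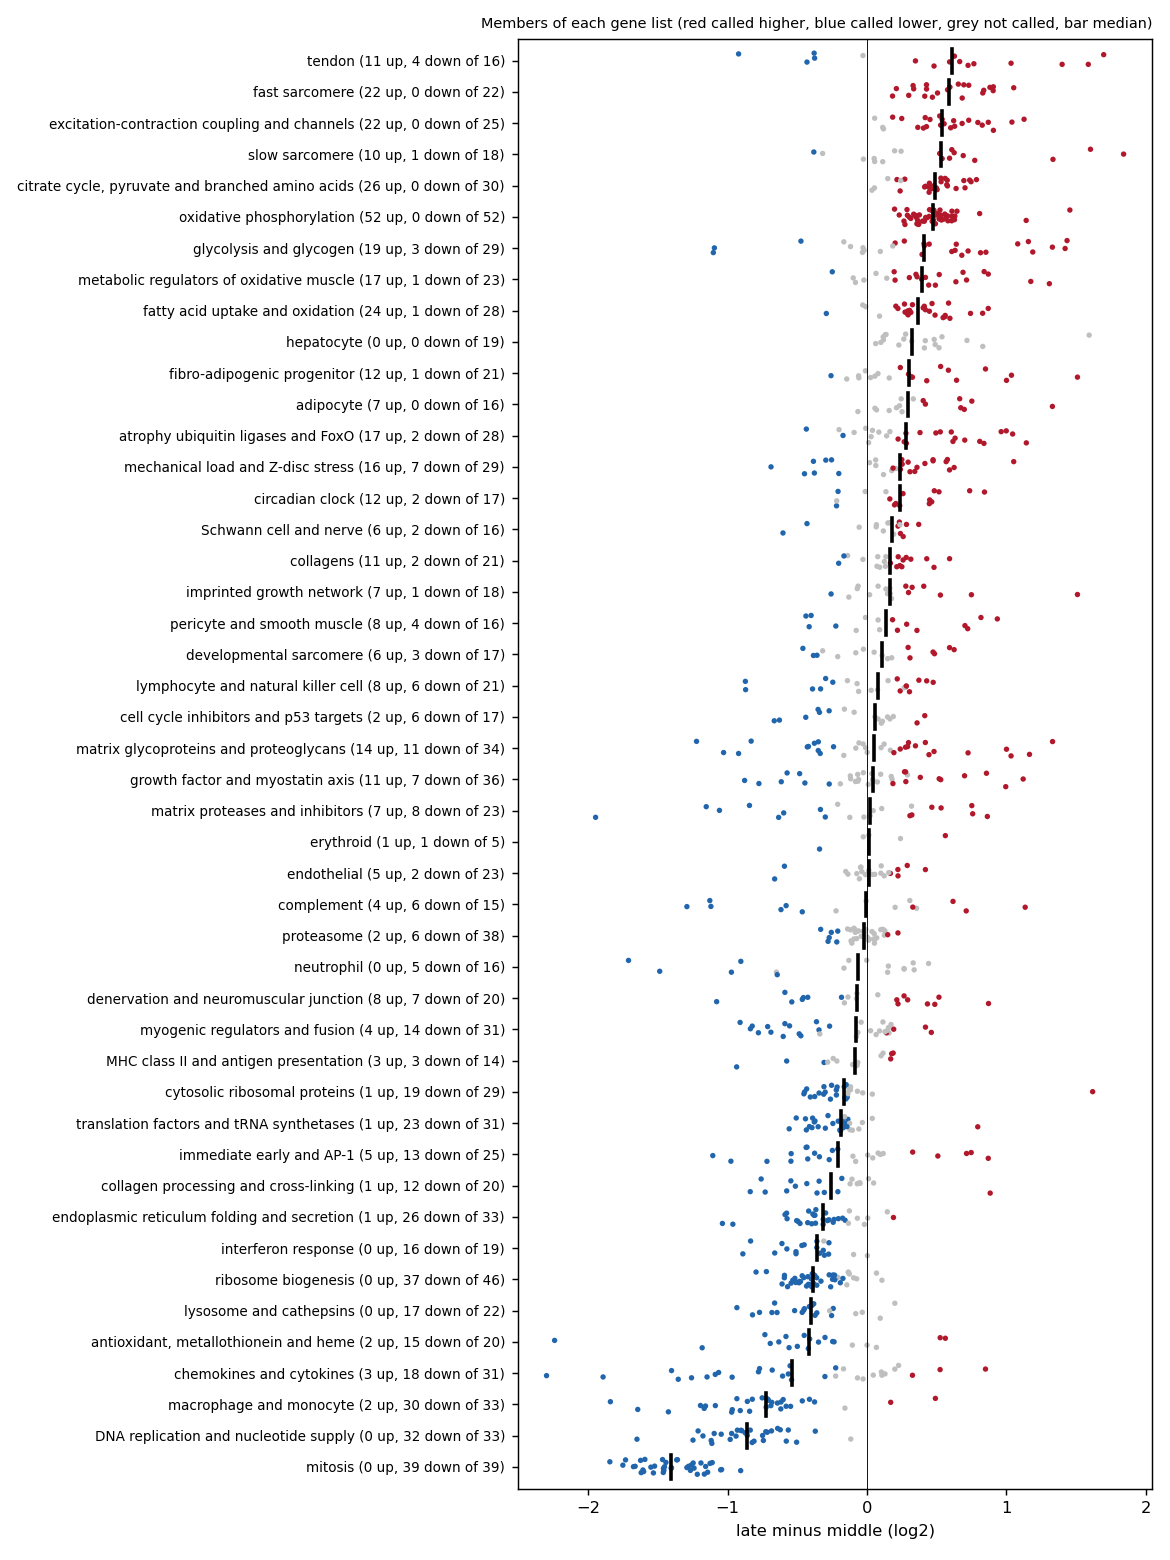
Late minus middle difference (log2, x axis) of each measured member of 46 gene lists (y axis, ordered by median), red where called higher, blue where called lower and grey where not called, with a bar at the median. Mitosis (median -1.40) lies at one end and tendon (0.61) and fast sarcomere (0.59) at the other.

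Differences of collagen genes were small, and 12 genes of collagen processing fell. Of 21 collagens 11 rose and 2 fell, with a median of 0.17, and 1 fell where any array other than the day 5 right pool was left out. Col1a1, the main chain of type I collagen, read 13.43 and 13.52 at day 5, 13.83 and 13.85 at day 7, 13.76 and 13.79 at day 10 and 13.67 and 13.73 at day 14, already at its late level by day 7 (0.08 ± 0.07, adjusted p = 0.387), and Col3a1 behaved alike (0.13 ± 0.06, adjusted p = 0.1). Rises included the minor chains Col11a1 (0.59 ± 0.05), Col14a1 (0.48 ± 0.07), the basement membrane chain Col15a1 (0.43 ± 0.06) and Col22a1 of the muscle-tendon junction (0.32 ± 0.06). The count of rises was 7 without the day 10 right pool, 4 with day as a random block and 1 between days 10 and 7 alone. Of 20 genes of collagen processing and cross-linking 12 fell, or 7 with day as a random block. Lox, lysyl oxidase, which starts the cross-links of collagen and elastin, read 12.90 and 12.94 at day 5, 12.85 and 12.83 at day 7, 12.37 and 12.35 at day 10 and 11.91 and 11.86 at day 14 (-0.76 ± 0.06). Its relative Loxl3 (-0.84 ± 0.07) and the prolyl hydroxylase P4ha2 (-0.73 ± 0.07) fell too, and the prolyl hydroxylase P3h2 rose (0.88 ± 0.11).

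Matrix glycoproteins changed both ways. Of 34 genes 14 rose (7 between days 10 and 7 alone) and 11 fell, with a median of 0.05, where 17.7% of all genes rose and 18.4% fell. Eln, which encodes elastin, read 8.96 and 8.90 at day 5, 9.42 and 9.20 at day 7, 10.15 and 10.21 at day 10 and 10.60 and 10.86 at day 14, and every late array lay above every middle array (2.52-fold, 1.33 ± 0.07, adjusted p = 1.65e-06). Aggrecan, Acan (1.17 ± 0.11), and the small proteoglycans fibromodulin, Fmod (1.03 ± 0.10), and lumican, Lum (1.0 ± 0.08), rose with it. Tnc, the repair glycoprotein tenascin C, read 13.18 and 13.27 at day 5, 13.35 and 13.40 at day 7, 12.70 and 12.78 at day 10 and 12.23 and 12.17 at day 14 and fell (-0.83 ± 0.10), as did Ltbp2 (-1.22 ± 0.08), which binds elastic microfibrils, the hyaluronan synthase Has2 (-1.03 ± 0.12) and lubricin, Prg4 (-0.92 ± 0.09). Postn, periostin, was not called (0.00 ± 0.12).

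Inhibitors of matrix proteases split by member. Timp1 read 12.83 and 12.78 at day 5, 12.31 and 12.41 at day 7, 11.67 and 11.69 at day 10 and 11.24 and 11.12 at day 14 and fell (-1.15 ± 0.08, adjusted p = 4.39e-06). Timp3 rose (0.75 ± 0.07), and Timp4, the form rich in muscle and heart, read 7.78 and 7.55 at day 5, 7.42 and 7.67 at day 7, 8.08 and 8.09 at day 10 and 8.48 and 8.81 at day 14 and rose (0.76 ± 0.10), still far below its day 0 mean of 10.96. Of the 23 proteases and inhibitors 7 rose, among them Htra1 (0.86 ± 0.07) and Mmp2 (0.53 ± 0.06), and 8 fell, among them the urokinase receptor Plaur (-1.06 ± 0.07) and urokinase, Plau (-0.84 ± 0.06).

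Tendon genes gave the highest median of the 46 lists, 0.61, with 11 rises and 4 falls among 16 (1 fall between days 10 and 7 alone). Tnmd read 10.23 and 9.88 at day 5, 11.44 and 11.50 at day 7, 12.44 and 12.34 at day 10 and 12.40 and 12.22 at day 14, a 3.01-fold rise (1.59 ± 0.12, adjusted p = 5.48e-06) that had begun from day 5 to day 7 (1.42). Chad, chondroadherin of cartilage and tendon, read 9.54 and 9.48 at day 5, 8.68 and 9.40 at day 7, 10.43 and 10.66 at day 10 and 10.77 and 10.84 at day 14 (1.40 ± 0.18). Transcription factors of the list ran the other way: Scx, scleraxis, fell (-0.38 ± 0.07), as did Egr1 (-0.38 ± 0.05) and Egr2 (-0.43 ± 0.06). None of these factors was called between days 10 and 7 alone (-0.17, -0.05 and -0.12). Egr1 was not called with day as a random block. Of 21 genes of fibro-adipogenic progenitors, the mesenchymal cells between fibres, 12 rose and 1 fell, or 7 and 0 between days 10 and 7 alone. Dlk1 read 9.59 and 9.46 at day 5, 10.60 and 10.61 at day 7, 11.71 and 11.89 at day 10 and 11.51 and 11.20 at day 14 and Pi16, of adventitial fibroblasts, read 9.37 and 9.18 at day 5, 9.39 and 9.27 at day 7, 10.26 and 10.20 at day 10 and 10.36 and 10.54 at day 14. In both genes the late arrays lay above all middle arrays (1.51 ± 0.08 and 1.04 ± 0.06), while Pdgfra, the receptor that defines these cells, was not called (-0.06 ± 0.07). Of 16 adipocyte genes 7 rose, or 3 between days 10 and 7 alone, led by Slc2a4, which fibres also express, and the adipokine Adipoq was not called (0.23 ± 0.21).

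Vessel and nerve lists held calls in both directions. Of 23 endothelial genes 5 rose and 2 fell, where 17.7% of all genes rose and 18.4% fell, so the share of rises was near that of all genes and the share of falls below it. Pecam1, the general endothelial marker, was not called (0.01 ± 0.05), and the 2 falls were of Apln (-0.66 ± 0.09) and Esm1 (-0.59 ± 0.07). The count of rises was 1 with day as a random block, 2 between days 10 and 7 alone, 2 without the day 5 right, day 7 right, day 10 right or day 14 left pool, and 3 without the day 10 left pool. Of 16 pericyte and smooth muscle genes 8 rose, among them Rgs5 (0.94 ± 0.07) and the potassium channel Kcnj8 (0.82 ± 0.08) of pericytes and Myh11, smooth muscle myosin (0.70 ± 0.07), and 4 fell (1 with day as a random block), among them Acta2, smooth muscle actin (-0.41 ± 0.06). That count of rises was 5 without the day 5 left, day 7 right or day 10 right pool. Schwann cell and nerve genes rose in 6 of 16 cases, with Cldn19 of myelin at 0.37 ± 0.06, and 3 rose with day as a random block. Between days 10 and 7 alone no member of that list was called (limma, 6 higher and 2 lower at an unadjusted p under 0.05). The 2 falls of that list were 1 without the day 5 left, day 7 right, day 10 left, day 14 right or day 14 left pool.

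**Figure D4:**
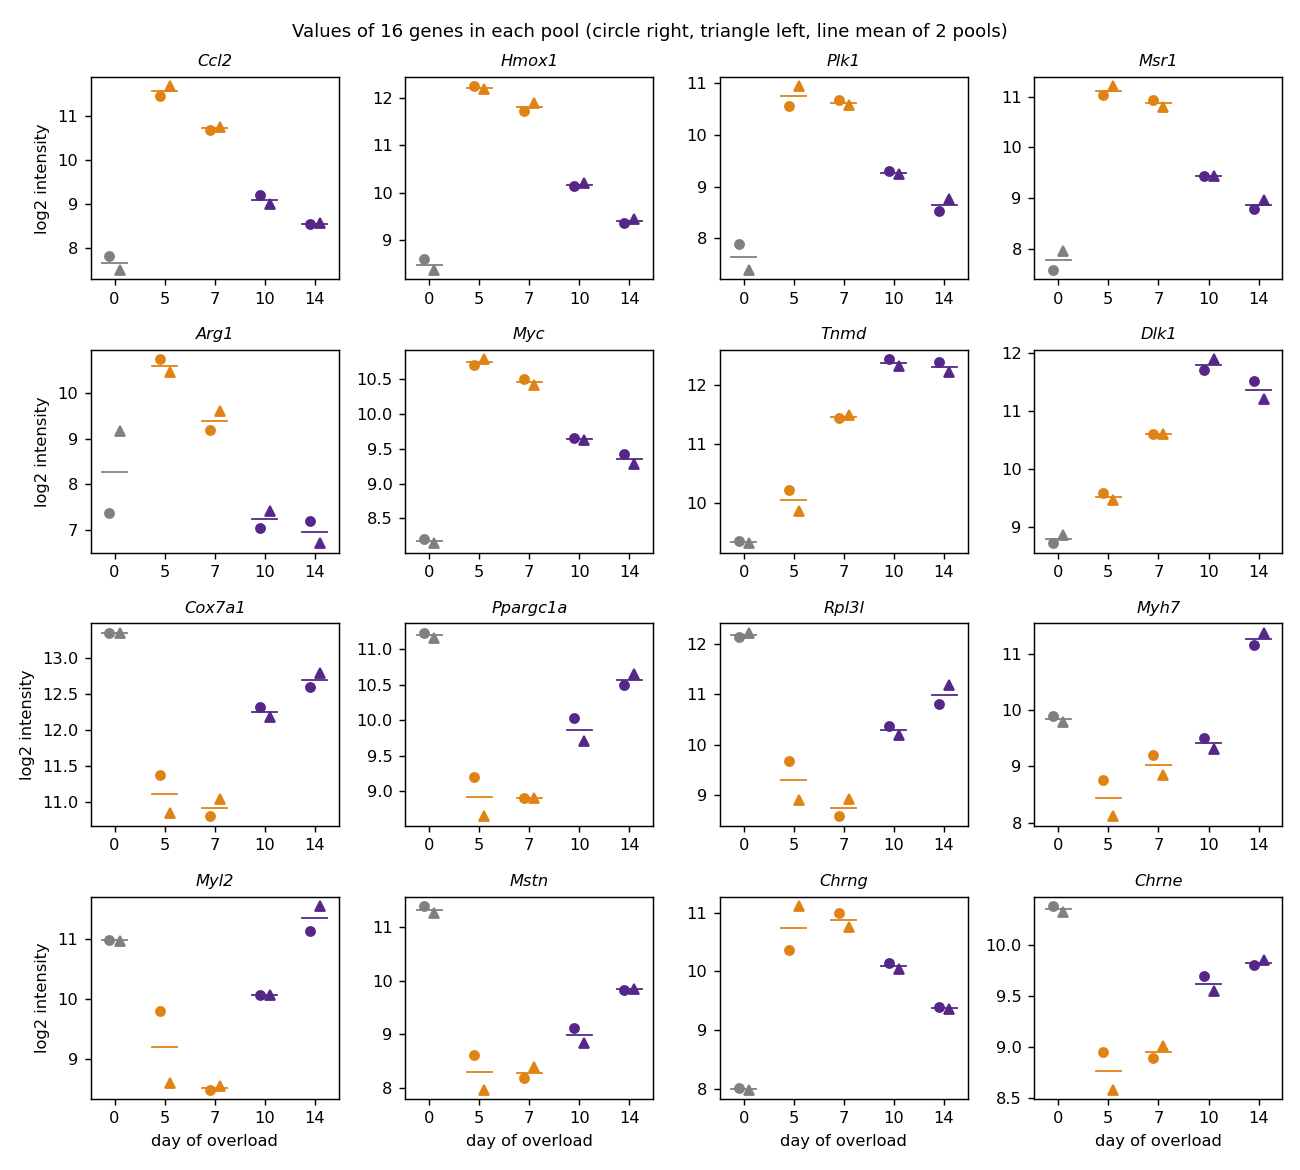
Log2 intensity (y axis) of 16 genes in the right (circle) and left (triangle) pool at days 0, 5, 7, 10 and 14 (x axis, equally spaced), grey before overload, orange in the middle and violet in the late phase, with the day mean as a line. In each gene the 4 violet points lie on one side of the 4 orange points, for example Ccl2 at 8.55 to 9.20 against 10.68 to 11.66.

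Contractile genes of fast fibres rose in every measured case. All 22 genes of the fast sarcomere list rose, with a median of 0.59 and a range of 0.18 to 1.05, where 17.7% of all genes rose. Myh4, the fastest myosin heavy chain, read 13.28 and 12.85 at day 5, 12.85 and 13.00 at day 7, 13.36 and 13.28 at day 10 and 13.51 and 13.54 at day 14 (0.43 ± 0.09, adjusted p = 0.00268), Myh1 rose by 0.51 ± 0.08 and Myh2, of fast oxidative fibres, by 0.70 ± 0.11. For Myh4 the day 5 right pool and the day 10 left pool both read 13.28, so the phases touched. Tcap, the titin cap, rose most (1.05 ± 0.11), followed by Mybpc2 (0.91 ± 0.10) and Myoz1 (0.91 ± 0.10). The median of the list stood 0.83 below day 0 in the middle phase and 0.22 below it in the late phase. From day 7 to day 10 18 of the 22 rose, where 6.95% of all genes did. Over the same arrays the summed intensity of the macrophage genes fell as given above, and the part of such a shift in cell make-up in the rise of fibre genes was not tested.

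Among slow fibre genes, Myh7 and Myl3 rose at the last step. Of 18 genes 10 rose and 1 fell, with a median of 0.53. Myh7 read 8.76 and 8.11 at day 5, 9.20 and 8.84 at day 7, 9.51 and 9.32 at day 10 and 11.14 and 11.37 at day 14, 3.04-fold higher in the late phase (1.60 ± 0.30, adjusted p = 0.00164), and its one called step was from day 10 to day 14 (1.85). Myl3, the slow essential light chain, read 8.42 and 7.55 at day 5, 7.98 and 7.83 at day 7, 8.62 and 8.42 at day 10 and 10.00 and 10.07 at day 14 and had its called step there too (1.52). Tnnt1, slow troponin T, was not called (0.25 ± 0.17), and Tpm3, slow tropomyosin, fell (-0.38 ± 0.05), but its probe sets disagreed in direction and with their mean it was not called.

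Developmental sarcomere genes showed no common direction. Of 17 measured genes 6 rose and 3 fell, or 2 and 0 with day as a random block. Myh3, embryonic myosin, read 11.80 and 12.02 at day 5, 12.51 and 12.54 at day 7, 12.27 and 12.20 at day 10 and 11.83 and 11.73 at day 14, highest at day 7, and was not called (-0.21 ± 0.15). Myh8, perinatal myosin, read 11.11 and 11.02 at day 5, 11.74 and 11.88 at day 7, 12.23 and 12.09 at day 10 and 11.88 and 11.49 at day 14 (0.49 ± 0.14), and its call was lost without the day 5 left, day 7 right, day 10 right or day 14 right pool. Tnnt2, cardiac and embryonic troponin T, fell (-0.46 ± 0.08). Among 29 genes of mechanical load and Z-disc stress 16 rose and 7 fell, or 8 and 4 with day as a random block. The ankyrin repeat gene Ankrd2 read 13.01 and 12.52 at day 5, 11.98 and 12.14 at day 7, 12.68 and 12.74 at day 10 and 13.28 and 13.33 at day 14 (0.59 ± 0.09), with both day 7 pools the lowest, and the muscle LIM gene Csrp3 had the same dip (12.90 and 12.73 at day 5, 11.97 and 12.13 at day 7, 12.64 and 12.67 at day 10 and 12.84 and 12.83 at day 14).

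Among genes of myoblast differentiation and fusion, Myog, Mymk and Myod1 fell. Of 31 genes 14 fell and 4 rose. Myog, the factor that starts differentiation, read 9.97 and 10.67 at day 5, 10.73 and 10.57 at day 7, 10.10 and 10.10 at day 10 and 9.0 and 9.10 at day 14 (-0.91 ± 0.12, adjusted p = 0.000155). Mymk, the membrane protein that fuses myoblasts, read 12.03 and 12.48 at day 5, 12.37 and 12.23 at day 7, 11.91 and 11.93 at day 10 and 11.01 and 10.96 at day 14 (-0.82 ± 0.09), and Myod1, the factor of committed myoblasts, fell too (-0.78 ± 0.09). In all 3 genes the larger step was from day 10 to day 14 (-1.05, -0.93 and -0.60). Pax7, the factor of satellite cells, was not called (-0.06 ± 0.07), and Calcr, a receptor of quiescent satellite cells, rose (0.46 ± 0.05). The count of rises was 2 without the day 14 right pool, and the count of falls was 9 between days 10 and 7 alone.

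The fetal and adult receptor subunits of the neuromuscular junction changed in opposite directions. Chrng, the fetal gamma subunit of the acetylcholine receptor, read 10.37 and 11.12 at day 5, 11.00 and 10.76 at day 7, 10.15 and 10.04 at day 10 and 9.39 and 9.36 at day 14 (-1.08 ± 0.14, adjusted p = 0.000153). Chrne, the adult epsilon subunit, read 8.95 and 8.58 at day 5, 8.89 and 9.0 at day 7, 9.69 and 9.55 at day 10 and 9.80 and 9.86 at day 14 (0.87 ± 0.08, adjusted p = 1.6e-05). Late arrays of Chrng lay below and those of Chrne above all middle arrays. The alpha subunit Chrna1 (-0.54 ± 0.07) and the kinase Musk (-0.46 ± 0.05) fell, and the esterase Ache rose (0.52 ± 0.08). In all 8 of the 20 denervation and junction genes rose, 5 with day as a random block, and 7 fell, where 17.7% of all genes rose and 18.4% fell.

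Myostatin rose toward its level before overload. Mstn, myostatin, which restrains muscle mass, read 8.62 and 7.97 at day 5, 8.18 and 8.39 at day 7, 9.12 and 8.85 at day 10 and 9.83 and 9.85 at day 14, 2.18-fold higher in the late phase (1.12 ± 0.14, adjusted p = 9.58e-05), against a day 0 mean of 11.32. Its binding inhibitor Fst, follistatin, read 9.56 and 9.75 at day 5, 9.60 and 9.68 at day 7, 9.91 and 10.05 at day 10 and 10.29 and 10.41 at day 14 and rose also (0.52 ± 0.06). Inhba, the activin A subunit, fell (-0.88 ± 0.09), and Igf1 was not called (0.29 ± 0.15). Igfn1, a Z-disc protein with immunoglobulin and fibronectin domains, rose (0.86 ± 0.07), as did Ostn, osteocrin (1.0 ± 0.13), and the binding protein Igfbp6 (0.70 ± 0.05). Of the 36 genes of this axis 11 rose and 7 fell, where 17.7% of all genes rose and 18.4% fell. The share of falls was near that of all genes. Between days 10 and 7 alone 7 rose and 2 fell, where 6.95% of all genes rose and 9.52% fell. Of 18 imprinted growth genes 7 rose, where 17.7% of all genes did, or 4 with day as a random block. The 1 fall, of Peg10 (-0.26 ± 0.09), was lost without the day 5 left, day 7 right, day 10 right, day 10 left or day 14 left pool. Meg3 (0.75 ± 0.07) and Plagl1 (0.53 ± 0.07) rose, and Igf2 (0.28 ± 0.06) was highest in the day 10 pools.

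Among genes of atrophy and FoxO signalling 17 of 28 rose and 2 fell (1 without the day 10 left pool), with a median of 0.28. The ubiquitin ligase adaptors Asb11 (1.14 ± 0.11), Asb15 (1.05 ± 0.12) and Asb14 (1.0 ± 0.11) led. The ligases best known from atrophy were not called: Fbxo32, atrogin-1, read 10.91 and 10.82 at day 5, 10.45 and 10.44 at day 7, 10.44 and 10.37 at day 10 and 10.90 and 10.96 at day 14 (0.01 ± 0.06), with a fall from day 5 to day 7 (-0.43) and a rise from day 10 to day 14 (0.52), and Trim63, MuRF1, stood at 0.14 ± 0.07. Of 25 genes of excitation-contraction coupling and channels 22 rose (median 0.54). These included the potassium channel Kcna7 (1.13 ± 0.11), the chloride channel Clcn1 (1.04 ± 0.11), which sets resting conductance, and Jph1, junctophilin, which ties the sarcoplasmic reticulum to the surface (0.91 ± 0.09).

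Mitochondrial genes rose together. In the late phase 51 of 52 in the oxidative phosphorylation list were still called below day 0, where 29.3% of all genes were. All 52 genes of oxidative phosphorylation rose, with a median of 0.47 and a range of 0.20 to 1.46. Cox7a1 read 11.36 and 10.84 at day 5, 10.79 and 11.03 at day 7, 12.31 and 12.17 at day 10 and 12.59 and 12.78 at day 14, a 2.74-fold rise (1.46 ± 0.10, adjusted p = 4.69e-06), and the other muscle forms of cytochrome oxidase subunits, Cox8b (1.14 ± 0.11) and Cox6a2 (0.81 ± 0.08), came next. From day 7 to day 10 43 of 52 rose, and from day 10 to day 14 4 did, where 2.11% of all genes did. The list median was 1.08 below day 0 in the middle phase and 0.55 below it in the late phase. Of 30 genes of the citrate cycle, pyruvate and branched amino acids 26 rose (median 0.49), with Pdk2 (0.79 ± 0.08) and Mdh1 (0.75 ± 0.06). Of 28 genes of fatty acid uptake and oxidation 24 rose and 1 fell (median 0.37), 15 rose with day as a random block, and 9 rose between days 10 and 7 alone. Fabp3, which carries fatty acids in muscle, rose (0.87 ± 0.11), Cd36 was not called (-0.01 ± 0.06), and the transporter Slc27a1 fell (-0.29 ± 0.07).

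Regulators of oxidative metabolism rose in 17 of 23 cases, with 10 rises between days 10 and 7 alone. The 1 fall, of the factor Nrf1 (-0.25 ± 0.07), was lost without the day 5 left, day 7 right or day 14 right pool. Ppargc1a, the coactivator PGC-1 alpha that drives mitochondrial growth, read 9.20 and 8.65 at day 5, 8.91 and 8.90 at day 7, 10.03 and 9.71 at day 10 and 10.50 and 10.65 at day 14, a 2.48-fold rise (1.31 ± 0.12, adjusted p = 1.78e-05). Its partner receptor Esrrg read 8.81 and 8.50 at day 5, 8.46 and 8.48 at day 7, 9.39 and 9.39 at day 10 and 10.00 and 10.16 at day 14 (1.18 ± 0.07), and the kinase subunit Prkaa2 rose (0.84 ± 0.08). Tfam, the mitochondrial transcription factor, was not called (0.14 ± 0.09). The estrogen-related receptor motif AAGGTCA was present on either strand in 2.5% of the 40 oxidative phosphorylation promoters in the table, 3.70% of the 27 of the citrate cycle list and 4.17% of the 24 of the fatty acid list, against 4.05% of all promoters.

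Both main glucose transporters changed, in opposite directions. Slc2a4, the insulin-responsive transporter GLUT4 of fibres, read 10.77 and 10.05 at day 5, 9.82 and 10.14 at day 7, 11.41 and 11.31 at day 10 and 11.62 and 11.77 at day 14 (1.33 ± 0.13, adjusted p = 2.44e-05). Slc2a1, the basal transporter GLUT1, read 12.04 and 11.86 at day 5, 11.24 and 11.23 at day 7, 10.61 and 10.48 at day 10 and 10.43 and 10.44 at day 14 (-1.10 ± 0.05, adjusted p = 1.12e-06). Neither gene's phases overlapped. Of 29 genes of glycolysis and glycogen 19 rose and 3 fell (median 0.41). Gpd1, the phosphorylase kinase subunit Phkg1 (1.42 ± 0.13) and the glycogen targeting subunit Ppp1r3c (1.19 ± 0.12) rose, and the non-muscle enzymes Pgam1 (-1.09 ± 0.07) and Pgm2 (-0.47 ± 0.07) fell.

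**Figure D5:**
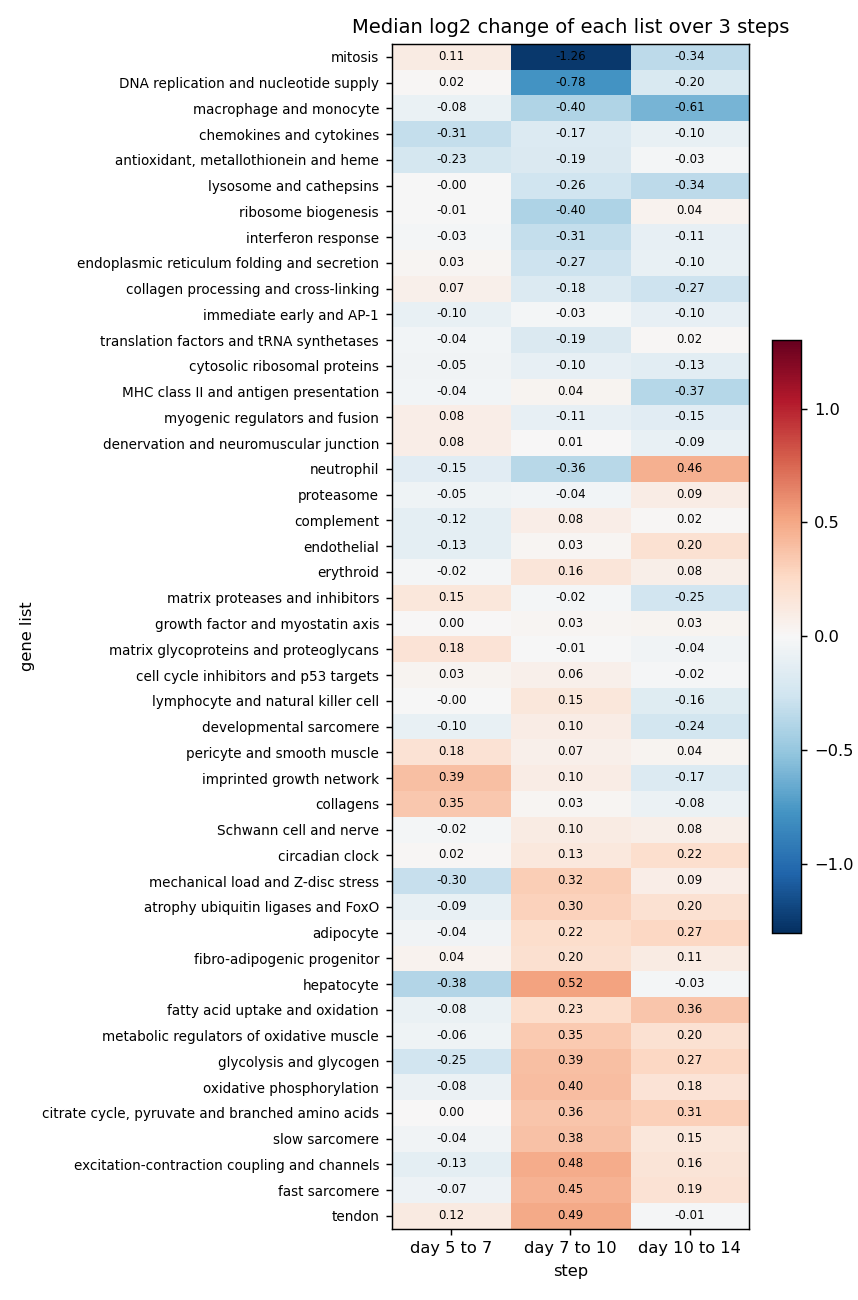
Median log2 change (colour and number) of each of 46 gene lists (y axis) over the steps from day 5 to 7, 7 to 10 and 10 to 14 (x axis). Mitosis and DNA replication change most from day 7 to 10 (-1.26 and -0.78), macrophage genes from day 10 to 14 (-0.61), and collagens from day 5 to 7 (0.35).

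Genes that build ribosomes fell. Of 46 genes of ribosome biogenesis 37 fell, with a median of -0.39, and the median stood 0.28 above day 0 in the middle phase and -0.07 from it in the late phase. Nop58, a core protein of snoRNA particles, read 9.22 and 9.49 at day 5, 9.53 and 9.38 at day 7, 8.63 and 8.53 at day 10 and 8.60 and 8.68 at day 14 (-0.80 ± 0.08, adjusted p = 4.02e-05). Npm1, nucleophosmin of the nucleolus, read 11.25 and 11.09 at day 5, 11.15 and 11.08 at day 7, 10.63 and 10.53 at day 10 and 10.32 and 10.19 at day 14 (-0.72 ± 0.07). Myc, the factor that drives many of these genes, read 10.70 and 10.78 at day 5, 10.51 and 10.42 at day 7, 9.65 and 9.62 at day 10 and 9.42 and 9.28 at day 14 (-1.11 ± 0.06, adjusted p = 2.07e-06). In all 3 genes the phases were apart. Of 29 cytosolic ribosomal proteins 19 fell (median -0.16), 10 with day as a random block and 4 between days 10 and 7 alone. Rpl3l was the 1 that rose, reading 9.67 and 8.91 at day 5, 8.58 and 8.92 at day 7, 10.37 and 10.20 at day 10 and 10.80 and 11.18 at day 14 (1.62 ± 0.15, adjusted p = 1.74e-05). Of 31 translation factors and tRNA synthetases 23 fell (11 with day as a random block), and the 1 rise was again the muscle form, Eef1a2 (0.80 ± 0.08).

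Genes of the endoplasmic reticulum folding and secretion list fell too. Of 33 genes 26 fell and 1 rose, with a median of -0.31, and 17 fell between days 10 and 7 alone. Asns, asparagine synthetase, a target of the stress factor ATF4, read 11.07 and 11.33 at day 5, 11.21 and 11.06 at day 7, 10.41 and 10.42 at day 10 and 9.88 and 9.82 at day 14 (-1.04 ± 0.09, adjusted p = 1.33e-05). The oxidase Ero1a (-0.96 ± 0.08), the disulfide isomerases Pdia6 (-0.59 ± 0.07) and Pdia4 (-0.58 ± 0.08) and the chaperone Hspa5 (-0.38 ± 0.05) fell too. The Asns promoter is shown because its list fell together and was searched for CCACG, the letters that end the endoplasmic reticulum stress element. The rest of that element was not searched for, and the capitals do not mark a whole element. Motifs of ATF4 were not searched for either. It lies on chr6:7693210-7693459, minus strand, of GRCm38.p6 (RefSeq, 250 bases before the start, motif in capitals).
Asns: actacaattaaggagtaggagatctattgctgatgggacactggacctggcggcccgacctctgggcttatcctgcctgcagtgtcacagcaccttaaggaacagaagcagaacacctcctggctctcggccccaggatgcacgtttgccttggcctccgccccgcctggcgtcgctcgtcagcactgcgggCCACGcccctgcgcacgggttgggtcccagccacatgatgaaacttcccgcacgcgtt
On either strand (CCACG or CGTGG) the motif was present in 18 of 26 promoters of the list (69.2%). It was present in 28.2% of all 27025, and in 34.4% of the 15614 genes of the array with a promoter in the table. A match describes these letters only, and base composition was not matched.

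Of 20 stress and antioxidant genes 15 fell and 2 rose, with a median of -0.42, and 5 fell between days 10 and 7 alone. The metallothioneins Mt1 (-0.73 ± 0.06) and Mt2 (-0.69 ± 0.07) and the cystine transporter Slc7a11 (-1.18 ± 0.14) fell, and mitochondrial superoxide dismutase, Sod2, rose (0.53 ± 0.05). Of 25 immediate early and AP-1 genes 13 fell, 5 between days 10 and 7 alone, and 5 rose. Fosl1 (-0.98 ± 0.14) fell with Myc. The nuclear receptors Nr4a3 (0.87 ± 0.07), Nr4a2 (0.75 ± 0.06) and Nr4a1 (0.72 ± 0.07), which respond to muscle activity, rose.

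The step with the most calls was that from day 7 to day 10. From day 5 to day 7 230 genes were called (1.15%), 133 higher (0.667%) and 97 lower (0.487%). From day 7 to day 10 there were 3284 (16.5%), 1385 higher (6.95%) and 1899 lower (9.52%), and from day 10 to day 14 there were 931 (4.67%), 420 higher (2.11%) and 511 lower (2.56%). These steps share arrays with each other and with the comparison of phases, and they rest on 2 arrays a day. The first step gave 29 calls without the day 5 right pool, 21 without the day 7 right and 60 without the day 7 left pool. The second gave 965 without the day 7 right, 1290 without the day 10 right and 1478 without the day 10 left pool. The third gave 128 and 67 without the day 10 right and left and 200 and 79 without the day 14 right and left pools, the lone pool being taken to vary like the other days. From day 5 to day 7 the rises were led by the serine protease Prss35 (1.5 ± 0.17), the kinase Nrk (1.5 ± 0.16), Tnmd (1.42 ± 0.17), the growth factor pleiotrophin, Ptn (1.37 ± 0.12), and the matrix protein Edil3 (1.10 ± 0.13). Falls there were led by Sprr1a (-1.18 ± 0.22), Ppbp (-1.16 ± 0.24), the heme synthesis enzyme Alas2 (-1.14 ± 0.16), the lectin Cd209f (-1.10 ± 0.18) and the neutrophil chemokine Cxcl5 (-1.10 ± 0.16). From day 7 to day 10 the rises were led by Myl2 (1.55 ± 0.35), Rpl3l (1.54 ± 0.21), Retnla (1.52 ± 0.25), Chad (1.5 ± 0.25) and Ckmt2 (1.41 ± 0.19), and the falls by Arg1 (-2.16 ± 0.43), the prostaglandin synthase Ptgs2 (-1.79 ± 0.11), Bub1 (-1.74 ± 0.22), Gal (-1.72 ± 0.18) and Hmmr (-1.72 ± 0.21).

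Some genes turned within the late phase. From day 10 to day 14 the rises were led by Myh7 (1.85 ± 0.42), Myl3 (1.52 ± 0.33), C7 (1.31 ± 0.17), the kinase Mylk4 (1.11 ± 0.18) and Scn4b (0.99 ± 0.19), and the falls by Ccl3 (-1.89 ± 0.15), Tyrobp, the adaptor of myeloid receptors (-1.22 ± 0.15), Prss35 (-1.22 ± 0.17), Myog (-1.05 ± 0.17) and Ccl5, a T cell chemokine (-1.0 ± 0.12). Prss35 read 7.79 and 8.18 at day 5, 9.62 and 9.36 at day 7, 9.93 and 10.03 at day 10 and 8.79 and 8.74 at day 14, a peak at days 7 and 10. Ptn (8.69 and 9.03 at day 5, 10.29 and 10.17 at day 7, 10.61 and 10.62 at day 10 and 9.74 and 9.70 at day 14) had the same shape. Ccl5 was highest at day 10, with a rise of 0.80 ± 0.12 from day 7 before that fall.

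Late levels were still apart from the muscle before overload. Against day 0, 14402 genes (72.2%) were called in the middle phase, 5789 higher (29%) and 8613 lower (43.2%). In the late phase 10688 (53.6%) were called, 4851 higher (24.3%) and 5837 lower (29.3%). Both comparisons use the same day 0 arrays, and each shares its overload arrays with the comparison of phases. Ppargc1a was -2.29 from day 0 in the middle and -0.98 in the late phase, and Mstn -3.03 and -1.91. Myl2 went from -2.11 to -0.27, the latter not called (adjusted p = 0.467), and Myh7 from -1.11 to 0.50 (adjusted p = 0.267). Tnmd went from 1.41 to 3.00 and Kera from 0.48 to 2.18. Arg1 went from 1.73 to -1.18 from its day 0 mean (limma, adjusted p = 0.0205), but its day 0 pools were themselves far apart at 7.37 and 9.17. The right one lay within the range of the late arrays. Hepatocyte genes also differed between these 2 pools, with summed intensities of 24172.5 (right) and 99950.4 (left). Any bearing of this on Arg1 was not tested.

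Right and left pools were compared for the change between phases. The difference of the late minus middle change between the sides was called in 0 genes (limma, 197 at an unadjusted p under 0.05), which does not show that the sides changed alike. Myl2 differed by 1.45 in the right and 2.23 in the left pools, and Plk1 changed by -1.71 and -1.76.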

How the data were processed

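Total RNA of pooled plantaris muscle was hybridised to 1 array per pool. Per the file headers and the values, the authors deposited 1 table of linear intensities for 35556 probe sets on 14 arrays. Partek is named per the submitters' processing notes, with no version, and the background and normalization methods are not given in the sources used here. The amount of RNA per array is stated as 100 ng in one place and 250 ng in another.

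Intensities were taken to log2 with no floor, filter or further normalization, and they carry no detection call, so dim genes were kept. GEO's platform annotation gave 1 gene symbol to 21789 probe sets, several to 1621 and none to 12146, and the probe set with the highest mean stood for a gene, which left 19938 genes. limma 3.58.1 in R 4.3.3 was fitted to all 14 arrays with 1 mean per day (7 residual degrees of freedom), and phases, steps and sides were contrasts of it. Values are log2 differences ± standard error, with the Benjamini-Hochberg adjustment made over all genes, separately in each of 7 comparisons. Tested on simulated arrays, with 19938 genes and 50 changed by each fold, the comparison of phases found 50% of 1.25-fold changes, 94% of 1.5-fold and 100% of 2-fold ones. It made 12 false calls. Simulated noise was independent between genes, and days of 1 phase did not differ, so these rates may not hold for the real arrays.

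Gene lists (46, with 1135 measured entries and 1071 distinct genes, since lists share members) and the days compared were chosen with earlier results of these data known. Genes named were the 15 largest changes each way with no overlap between phases, the 5 largest each way per step, up to 4 called members each way per list with the largest one not called, and a panel of marker genes. Promoters were matched by symbol to RefSeq, GRCm38.p6. The promoters printed were the 3 of the mitosis list with the largest falls that hold both motifs, and the 1 of the endoplasmic reticulum list with the largest fall that holds CCACG. Ncapg and Ect2 are named only for that. Alternatives covered normalization, filters, probe set choice, variance prior, thresholds, blocks, single days and each array left out.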

Additional observations from a re-analysis of the deposited data

Results flagged for a closer look

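Probe sets with no gene in the annotation stood outside the comparison of genes. Of 12146 such probe sets, 141 (1.16%) were called higher and 422 (3.47%) lower in late than in middle overload (limma, Benjamini-Hochberg over these probe sets). They were flagged because a difference appeared in data the comparison does not use, and which transcripts they read was not analysed here.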

How the results depend on the processing

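The number of arrays, 2 a day, limits the precision. Late against middle overload gave 7202 calls, 312 past 2-fold, 327 against a 1.5-fold change (limma's treat), 4419 with day as a random block (correlation 0.212), 3284 for day 10 against day 7 alone, 5337 to 7256 without 1 array, and 7495 without days 0 and 1, an alternative added after seeing the data. Higher genes were 48.9% of the calls, but 32.7% past 2-fold and 33.0% under treat. Past 2-fold and under treat, the steps gave 15 and 0 (day 5 to 7), 175 and 3 (day 7 to 10) and 14 and 1 (day 10 to 14). Late and middle overload against day 0 gave 1571 and 1906, and 2886 and 3579. Without 1 array the steps gave 21 to 327, 965 to 3393 and 67 to 1168 calls, and the comparisons with day 0 gave 9233 to 10600 and 13027 to 14233. Day 5 to 7 gave 363 calls without the dimmest class, 383 with a trended prior and 93 from its own arrays, and day 10 to 14 gave 1544 and 1431 with the first and second of these. The cause of these shifts was not tested, other than that thresholds of fold leave fewer calls by construction. Leaving arrays out did not always lower the count, as the 7256 and 7495 calls show. Of 287 called genes named by the rule, 183 kept their call in all alternatives but the thresholds of fold, and 9 reversed. Between days 14 and 5 these were Cd74 (-0.16), Cxcl14 (-0.024), H2-Aa (-0.036) and Mef2d (-0.065), and between days 10 and 7 Alas2 (0.10), Ankrd1 (0.043), Ccl3 (0.17), Kdr (-0.0060) and Rian (-0.049). Right minus left correlated between -0.58 and 0.44 over 21 pairs of days, with 9 over 0.1. Whether the 2 pools of a day are paired is not in the labels. Side as a replicate block gave 6897 calls between phases.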

Other observations

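Circadian clock genes rose in late overload in 12 of 17 cases, where 17.7% of all genes rose, with a median of 0.24 where that of all genes was 0.05, and 6 rose between days 10 and 7 alone. The repressors Nfil3 (-0.22 ± 0.07) and Bhlhe40 (-0.21 ± 0.07) fell. Neither fall was called with equal array medians, with day as a random block, or without the day 5 right, day 5 left, day 7 right, day 10 left or day 14 right pool. Dbp, a clock output factor, read 10.02 and 9.83 at day 5, 10.13 and 10.17 at day 7, 10.62 and 10.59 at day 10 and 11.12 and 11.19 at day 14 (0.84 ± 0.06, adjusted p = 4.89e-06), and stood at -0.16 from day 0 in the late phase (adjusted p = 0.0836). The repressor Nr1d1 (0.74 ± 0.06) and Tef (0.52 ± 0.05) rose with it, while Clock itself was close to level (-0.01 ± 0.06). The labels give no hour of tissue collection. Of 17 cell cycle inhibitors and targets of p53, 6 fell and 2 rose, where 18.4% of all genes fell and 17.7% rose. Plk2 (-0.67 ± 0.05) and Gadd45g (-0.63 ± 0.07) were lower and Ccng1 (0.42 ± 0.07) and Trp53inp1 (0.36 ± 0.08) higher. Trp53inp1 was not called between days 10 and 7 alone (0.21). Of 38 proteasome genes 3 fell and 0 rose with day as a random block. In the main comparison 6 fell and 2 rose, shares below the 18.4% and 17.7% of all genes that fell and rose. The rises were of Psme4 (0.22 ± 0.06) and Psmd12 (0.15 ± 0.05), the second lost without any 1 array but the day 5 right pool. The falls included the interferon-induced subunits Psmb8 (-0.33 ± 0.07), Psme2 (-0.28 ± 0.06) and Psmb10 (-0.27 ± 0.08), the last lost without some single arrays.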
